A study of Mus musculus with 4 samples.

Results

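The genes described here are 10 genes of the kidney's intercalated cells, chosen by name with earlier results of these data known. They are the transcription factor genes Hmx2 and Dmrt2, and the receptor genes Insrr, Kit and Adgrf5. The others are the anion exchanger genes Slc26a4, Slc26a7, Slc4a1 and Slc4a9, and the carbonic anhydrase gene Car2. All 10 matched 1 entry each among the 21900 protein-coding genes of the RefSeq table for GRCm38.p6, and 8 of them had a row among the 8666 genes of the deposited ChIP lists. The study used chromatin immunoprecipitation with sequencing (ChIP-seq) to search the distal tubules of the kidney for direct targets of Foxp1, a transcription factor of the forkhead family. It had 4 libraries from tubular cells of newborn mice, namely 1 ChIP and 1 input library of Foxp1KspKO mice and 1 ChIP and 1 input library of their littermate controls. The name Foxp1KspKO denotes a knockout (KO) of Foxp1, the factor under study. Ksp stands for Ksp-cadherin (gene Cdh16), and Cre lines made with that promoter act in the epithelium of renal tubules. A listing for the Foxp1KspKO ChIP or for the control ChIP is therefore not read here as Foxp1 binding. The labels used here do not spell out the alleles of the controls, the age in days, or how many animals gave each library. For the antibody, the labels' field gives rabbit IgG for the control ChIP and a Foxp1 antibody for the Foxp1KspKO ChIP, whereas the descriptions name both libraries FoxP1, so the libraries are named below by genotype only.

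Intercalated cells are the acid-base transporting cells of the connecting tubule and collecting duct. Type A cells secrete acid through an apical proton pump and return bicarbonate to the blood through the basolateral anion exchanger AE1, the product of Slc4a1. Type B cells secrete bicarbonate through the apical exchanger pendrin, the product of Slc26a4, and carry AE4, the product of Slc4a9, on the basolateral side. Cytosolic carbonic anhydrase 2, the product of Car2, supplies the proton and the bicarbonate, and the transcription factor Foxi1 directs the differentiation of both types. In mouse kidney Hmx2 and Insrr mark type B cells, and Dmrt2, Slc26a7 and Adgrf5 mark type A cells.

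None of the 10 genes was listed for both ChIP libraries. Kit, Adgrf5 and Car2 were listed for the Foxp1KspKO ChIP alone, and Hmx2, Slc26a7, Insrr, Dmrt2 and Slc26a4 for the control ChIP alone. Slc4a1 and Slc4a9 were listed for neither. A listing means that the authors' deposited table gives the gene a p-value, all of which lie under 0.05, with no peak position, fold enrichment or read count. Depth is therefore unknown and no error can be put on a listing, and with 1 library per genotype there is no replicate check and no test between genotypes.

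The Foxp1KspKO list thus held 3 of the 10 genes, against 20.9% of all protein-coding genes, and the control list held 5 of the 10, against 29.0%. Listing for the Foxp1KspKO ChIP alone applied to 3 of the 10 genes and to 7.63% of all protein-coding genes, and listing for the control ChIP alone to 5 of the 10 genes and 15.7%. Listing for both ChIP libraries applied to 0 of the 10 genes, beside 13.2% of all protein-coding genes, and 2 of the 10 genes were in neither list, beside 63.4%. The genes were chosen with these lists known, so their counts carry no test. The preparation holds several tubular cell types, and fewer intercalated cells cannot be told apart from less bound DNA per cell. The antibody field of the labels also differs between the ChIP libraries. If that field is right, antibody and genotype cannot be told apart in either direction of listing. The lists hold no expression values against which the cell types could be checked, and neither Foxp1 nor Cdh16 was listed for either library.

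**Figure D1:**
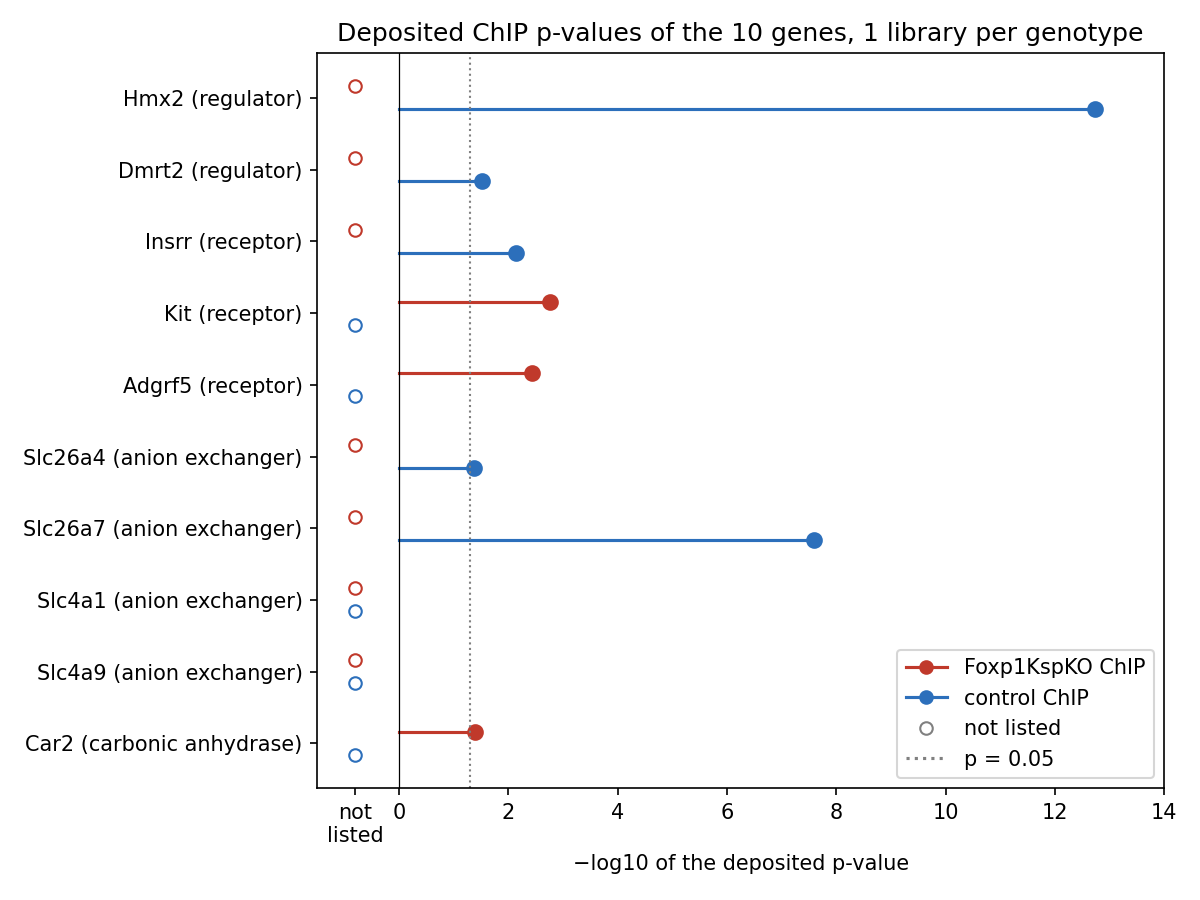
The horizontal axis is −log10 of the deposited p-value and each row is a gene, with the Foxp1KspKO ChIP drawn above the control ChIP. Open circles mark genes not listed, and the dotted line marks the listing limit of 0.05. Each of the 8 listed genes has a filled circle in 1 library only, and Hmx2 and Slc26a7 lie farthest to the right, at 12.73 and 7.59 in the control ChIP.

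Hmx2 encodes a homeodomain transcription factor and lies on chromosome 7 from 131548757 to 131558014 (GRCm38.p6). It was not listed for the Foxp1KspKO ChIP, and the authors' deposited table gave it p = 1.88e-13 in the control ChIP, the lowest value among the 10 genes. That p-value ranked 317 of the 6799 control genes (lowest first), at 4.66% of the list, and no other gene shared it. Of the 317 control genes with a p-value as low or lower, 283 (89.3%) were also in the Foxp1KspKO list, so Hmx2 was 1 of 34 that were not. In the decade of p-values that holds Hmx2, from 1e-13 to 1e-12, 41 of 53 control genes (77.4%) were also in the Foxp1KspKO list.

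Dmrt2 encodes a transcription factor with a DM domain and lies on chromosome 19 from 25672394 to 25679013. It too was not listed for the Foxp1KspKO ChIP, while the authors' deposited table gave it p = 0.0309 in the control ChIP, close to the limit of the list. It stood at 90.5% of the control list by rank, and 3 genes on other chromosomes had exactly the same p-value. Between p-values of 0.01 and 0.05, 569 of 1884 control genes (30.2%) were also in the Foxp1KspKO list. Both transcription factor genes were absent from the Foxp1KspKO list, which held only 20.9% of all protein-coding genes. They stood near opposite ends of the control list.

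The promoter windows in RefSeq (GRCm38.p6, from 250 bases before to 50 bases after an annotated start) covered 5 of the 10 genes in 8 windows. They describe the DNA at the start of a gene, and whether the authors' p-values refer to that region is not given in the sources used here. The forkhead core motif TGTTTAC was in none of the 8 windows on either strand, beside 3.65% of all 32851 windows. Its first 6 bases, TGTTTA, which also begin the third of the added motifs, were in none of the 8 either, beside 13.4% of all windows. A further 4 forkhead-type motifs were searched on both strands after the data were seen. The first, TATTTAC, was in 3.04% of all windows and matched the window at the first Hmx2 start, on the strand opposite to the gene. The second, TATTTAT, was in 5.60% of all windows and matched the window of Slc26a4, also on the strand opposite to the gene. The third, TGTTTAT, was in 4.60% and the fourth, TGTTTGC, in 5.07% of all windows, and neither was in any of the 8. These windows are printed below with the match in capitals, followed by those of Dmrt2, whose start faces that of a neighbour with a much lower p-value, and Kit, the gene with the lowest Foxp1KspKO p-value among the 10.
Hmx2, chr7:131548507-131548806, plus strand: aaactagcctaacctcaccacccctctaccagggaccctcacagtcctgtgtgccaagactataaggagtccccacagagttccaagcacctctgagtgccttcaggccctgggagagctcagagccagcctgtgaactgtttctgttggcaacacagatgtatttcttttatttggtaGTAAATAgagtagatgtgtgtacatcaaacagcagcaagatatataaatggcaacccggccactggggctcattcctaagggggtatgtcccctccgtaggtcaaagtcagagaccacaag
Slc26a4, chr12:31559935-31560234, minus strand: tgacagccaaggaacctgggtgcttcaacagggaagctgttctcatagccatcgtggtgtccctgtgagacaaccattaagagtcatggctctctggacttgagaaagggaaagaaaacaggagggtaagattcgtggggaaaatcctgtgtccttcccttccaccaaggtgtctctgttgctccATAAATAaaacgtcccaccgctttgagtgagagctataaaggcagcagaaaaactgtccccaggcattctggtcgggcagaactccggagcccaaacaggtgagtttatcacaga
Dmrt2, chr19:25672161-25672460, plus strand: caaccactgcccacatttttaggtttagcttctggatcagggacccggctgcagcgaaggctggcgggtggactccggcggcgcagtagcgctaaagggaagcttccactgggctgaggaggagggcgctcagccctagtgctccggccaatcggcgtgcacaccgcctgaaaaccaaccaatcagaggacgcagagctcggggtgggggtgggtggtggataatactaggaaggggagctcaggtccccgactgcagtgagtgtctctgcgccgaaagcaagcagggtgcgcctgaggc
Kit, chr5:75574737-75575036, plus strand: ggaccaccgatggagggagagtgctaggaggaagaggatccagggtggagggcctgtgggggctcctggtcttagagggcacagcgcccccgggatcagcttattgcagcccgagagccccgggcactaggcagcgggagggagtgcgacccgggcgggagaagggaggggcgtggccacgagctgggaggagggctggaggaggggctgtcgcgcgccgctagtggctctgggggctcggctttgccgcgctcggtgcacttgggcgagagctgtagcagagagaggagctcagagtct

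The match in the Hmx2 window began 71 bases before the start and the match in the Slc26a4 window 65 bases before it. Any of the 5 motifs of 7 bases was in 2 of the 8 windows and in 19.1% of all windows. By list, any of the 5 motifs was in 15.7% of the windows of Foxp1KspKO-listed genes against 19.7% of the others, and in 17% of the windows of control-listed genes against 19.7% of the others. A match in these windows describes letters and is no measured binding site.

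The windows differed in base composition. GC content was 69.0% in the printed Kit window and 62.7% in that of Dmrt2, beside 50% in the first Hmx2 window and in that of Slc26a4. The window at the second Hmx2 start had 67.7% GC and 22 CpG dinucleotides, against 2 CpG in the first. The Adgrf5 windows had 54.3% and 47.3% GC. Over all genes the median was 59.2% GC in windows of Foxp1KspKO-listed genes against 52.0% in the others, and 59.0% in windows of control-listed genes against 51.7% in the others, so listed genes had the more GC-rich starts in both libraries.

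Insrr, Kit and Adgrf5 encode cell surface receptors. Insrr, whose product belongs to the insulin receptor family and is activated by alkaline medium, lies on chromosome 3 from 87796908 to 87816101. It was not listed for the Foxp1KspKO ChIP, and the authors' deposited table gave it p = 0.00727 in the control ChIP. By rank it stood at 67.9% of the control list, weaker than that list's median p-value of 0.00116 in the authors' deposited table. Among control genes with p-values from 0.001 to 0.01, 578 of 1604 (36.0%) were also in the Foxp1KspKO list.

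Kit, the receptor tyrosine kinase for stem cell factor, lies on chromosome 5 from 75574987 to 75656722. In the authors' deposited table it had p = 0.00177 in the Foxp1KspKO ChIP and was not listed for the control ChIP. Adgrf5, an adhesion G protein-coupled receptor known as GPR116, lies on chromosome 17 from 43360329 to 43459557. The authors' deposited table gave it p = 0.00369 in the Foxp1KspKO ChIP and no listing for the control ChIP. Kit stood at 36.6% and Adgrf5 at 44.9% of the Foxp1KspKO list by rank, so both were stronger than its median p-value of 0.00533 in the authors' deposited table. Of the 1425 Foxp1KspKO genes with p-values from 0.001 to 0.01, 882 (61.9%) were also in the control list, and Kit and Adgrf5 were among those that were not. The direction of listing thus differed among the receptor genes, with Kit and Adgrf5 in the Foxp1KspKO list and Insrr in the control list.

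Among the anion exchanger genes, both Slc26 genes were listed for the control ChIP, beside 29.0% of all protein-coding genes. Neither Slc4 gene was listed for either library, which was also true of 63.4% of all protein-coding genes. Slc26a7, whose product exchanges chloride for bicarbonate on the basolateral side of type A cells, lies on chromosome 4 from 14502430 to 14621946. It was not listed for the Foxp1KspKO ChIP, and the authors' deposited table gave it p = 2.57e-08 in the control ChIP, at rank 851 of the 6799 control genes, or 12.5%. Of the 852 control genes with a p-value as low or lower, 660 (77.5%) were also in the Foxp1KspKO list and 192 were not.

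Slc26a4, the pendrin gene, lies on chromosome 12 from 31519814 to 31560055. It had no listing for the Foxp1KspKO ChIP and p = 0.0435 in the control ChIP in the authors' deposited table, the highest value among the 5 control-listed genes. At 97.0% of the control list by rank it lay just inside the 0.05 limit, and 4 genes on other chromosomes had exactly its p-value. The basolateral exchanger genes of the Slc4 family, Slc4a1 (chromosome 11, 102348820 to 102365281) and Slc4a9 (chromosome 18, 36528066 to 36556272), were not listed for the Foxp1KspKO ChIP or for the control ChIP.

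Car2 lies on chromosome 3 from 14886269 to 14900770. The authors' deposited table gave it p = 0.0418 in the Foxp1KspKO ChIP and no listing for the control ChIP. It stood at 93.6% of the Foxp1KspKO list by rank, and 9 other genes, none on chromosome 3, had exactly the same p-value. Car2 and Slc26a4 were thus the weakest listings of the 10 genes, one in each library.

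**Figure D2:**
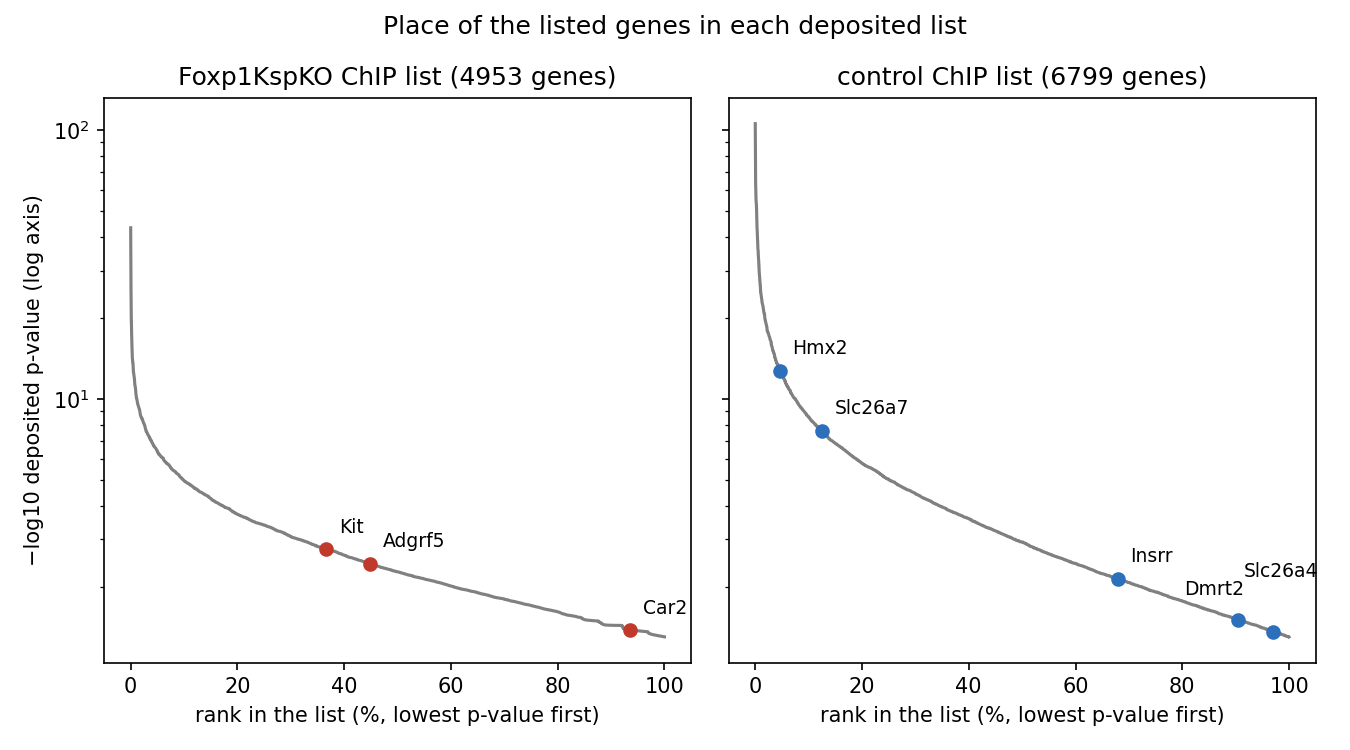
The horizontal axis is rank in each list in percent, with the lowest p-value first, and the vertical axis is −log10 of the deposited p-value on a log axis. Grey lines are all genes of the Foxp1KspKO list (left) and of the control list (right). Hmx2 and Slc26a7 lie at 4.66% and 12.5% of the control list, and Kit and Adgrf5 at 36.6% and 44.9% of the Foxp1KspKO list.

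The order of the control p-values was Hmx2, Slc26a7, Insrr, Dmrt2 and Slc26a4, and that of the Foxp1KspKO p-values Kit, Adgrf5 and Car2. No spread is known within a library, so neighbours in these orders cannot be separated. Treating the deposited p-values as unadjusted, and giving unlisted genes the highest possible value, a Benjamini-Hochberg adjustment over all 21900 protein-coding genes left Kit (adjusted p = 0.0231) and Adgrf5 (0.0394) under 0.05 in the Foxp1KspKO ChIP and Car2 (0.214) above it. In the control ChIP the same adjustment left Hmx2 (adjusted p = 1.35e-11), Slc26a7 (6.87e-07) and Insrr (0.0367) under 0.05, and Dmrt2 (0.118) and Slc26a4 (0.155) above it. Over all protein-coding genes, that adjustment passed 10.3% for the Foxp1KspKO ChIP and 21.3% for the control ChIP. With a plain limit of 0.01 on the deposited p-value, 2 of the 10 genes were listed for the Foxp1KspKO ChIP, beside 12.6% of all protein-coding genes, and 3 for the control ChIP, beside 21.1%. With a limit of 0.001 the counts were 0 of 10 for the Foxp1KspKO ChIP, beside 6.62%, and 2 of 10 for the control ChIP, beside 14.3%.

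All 5 control-listed genes were also in the list that the authors named unique to the control, which held 15.1% of all protein-coding genes. That list held 3367 of the 3703 symbols that had a control row and no Foxp1KspKO row, so membership was the rule for such genes. By cell type, the Foxp1KspKO list held 0 of the 4 genes assigned to type B and related cells (Hmx2, Insrr, Slc26a4 and Slc4a9) and the control list held 3, beside 20.9% and 29.0% of all protein-coding genes. Of the 5 genes assigned to type A cells (Slc4a1, Slc26a7, Dmrt2, Kit and Adgrf5), each list held 2, beside the same shares. Kit and Adgrf5, the 2 in the Foxp1KspKO list, were also assigned to intercalated cells of any type, so the type A count depends on that assignment. Groups of 4 and 5 genes are too small to read a contrast between the cell types from these counts, and none was tested.

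Listed genes were longer than unlisted ones in both libraries, with a median of 20713 bp for Foxp1KspKO-listed genes and 23814 bp for control-listed genes. The genes differed widely in this respect, from 6620 bp for Dmrt2 to 119517 bp for Slc26a7. Kit (81736 bp) and Adgrf5 (99229 bp) fell in the ninth of 10 length classes of equal size, in which 25.0% of genes were in the Foxp1KspKO list and 39.5% in the control list. Slc26a7 fell in the class of the longest genes, with 25.3% and 39.8%, while Hmx2 (9258 bp) fell in a class with 19.3% and 22.9%. The part of gene length in these listings was not tested.

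The genes next to Hmx2 had listings in both libraries although Hmx2 did not. Hmx3, a homeobox paralog 2.73 kb away, had p = 3.56e-04 for the Foxp1KspKO ChIP, against 0.0434 for the control ChIP, in the authors' deposited table. On the other side Bub3, a gene of the mitotic checkpoint 2.35 kb away, had 3.71e-04 for the Foxp1KspKO ChIP, against 9.35e-07 for the control ChIP, in the authors' deposited table. The control p-value of Hmx2 was thus lower than those of both adjacent genes, while in the Foxp1KspKO ChIP the adjacent genes alone were listed.

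Near Dmrt2, the noncoding RNA gene 2610016A17Rik starts 172 bases away on the opposite strand. It was not listed for the Foxp1KspKO ChIP and had p = 1.06e-07 in the control ChIP in the authors' deposited table, far below the value of Dmrt2. The nearest protein-coding gene, the paralog Dmrt3 at 48.5 kb, had 3.58e-08 for the Foxp1KspKO ChIP, against 1.97e-13 for the control ChIP, in the authors' deposited table. Dmrt1, the next paralog of the cluster and a gene of testis development, was not listed for the Foxp1KspKO ChIP and had 4.37e-04 in the control ChIP in the authors' deposited table. All 4 genes of this cluster were therefore listed for the control ChIP, and Dmrt2 had the highest p-value of the 4.

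Cbll1, 19.1 kb from Slc26a4, was listed in the opposite library to its neighbour. In the authors' deposited table Cbll1, which encodes a ubiquitin ligase, had p = 2.69e-08 in the Foxp1KspKO ChIP and was not listed for the control ChIP. Slc26a3, a paralog of Slc26a4 on the same chromosome that encodes a chloride-bicarbonate exchanger of the intestine, was not listed for the Foxp1KspKO ChIP and had 0.0386 in the control ChIP in the authors' deposited table. Lrrc69, 1.68 kb from Slc26a7, was in neither list.

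Kit lies between receptor tyrosine kinase genes that were listed for both libraries. Pdgfra, a receptor for platelet-derived growth factor 376.8 kb away, had p = 0.00373 for the Foxp1KspKO ChIP, against 0.00166 for the control ChIP, in the authors' deposited table. Kdr, the vascular endothelial growth factor receptor gene 276.1 kb away, had 0.00451 for the Foxp1KspKO ChIP, against 4.25e-06 for the control ChIP, in the authors' deposited table. In the Foxp1KspKO ChIP the p-value of Kit was below those of both, whereas in the control ChIP both of them and not Kit were listed. Mep1a, 14.8 kb from Adgrf5, was not listed for the Foxp1KspKO ChIP and had 0.00439 in the control ChIP in the authors' deposited table.

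The genes absent from both lists also had listed neighbours. Ubtf, which encodes a transcription factor of RNA polymerase I and lies 25.2 kb from Slc4a1, had p = 4.38e-05 for the Foxp1KspKO ChIP, against 8.57e-20 for the control ChIP, in the authors' deposited table. Ankhd1, 4.33 kb from Slc4a9, had 0.0265 for the Foxp1KspKO ChIP, against 7.80e-08 for the control ChIP, in the authors' deposited table. Of the 20 protein-coding genes next to the 10 genes, 9 were in the Foxp1KspKO list and 10 in the control list, beside 20.9% and 29.0% of all protein-coding genes, and 8 were in both, beside 13.2%. Some of these neighbours are distant, such as Runx1t1, 607.4 kb from Slc26a7, and Smarca2, 926.1 kb from Dmrt2. No gene on the same chromosome as a listed gene had exactly its p-value in the same list.

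**Figure D3:**
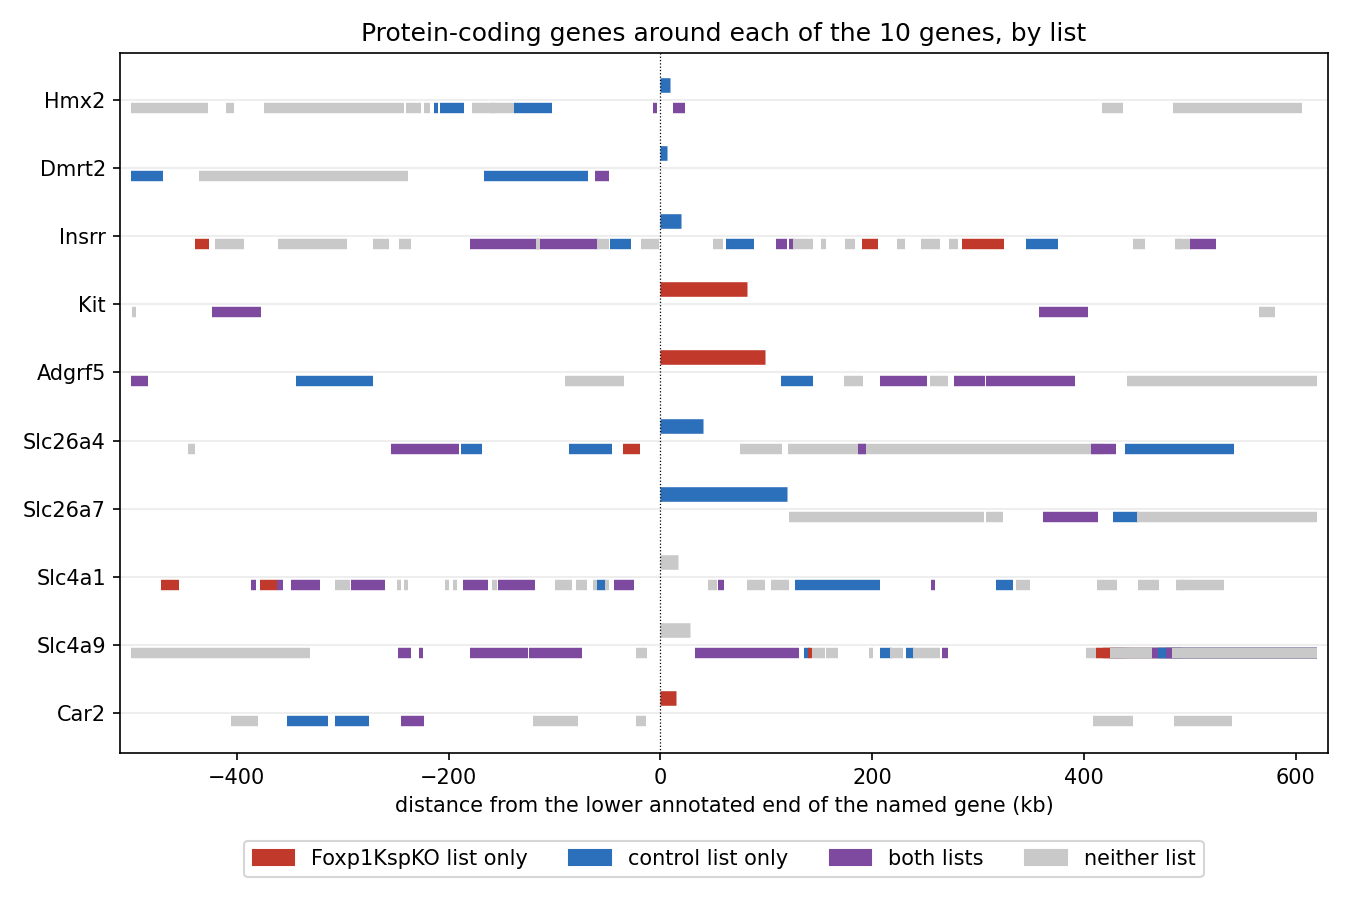
The horizontal axis is the distance in kb from the lower annotated end of each named gene, and bars are protein-coding genes within about 500 kb, coloured by list. The named gene is the thicker bar raised above its row. Kit has 2 genes in both lists among 4 protein-coding genes within 500 kb, and Hmx2 has 2 among 14, both next to it.

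Related genes were followed in 6 lists of paralogs and cell type genes, leaving out the 10 genes. Of 25 other intercalated cell genes, 2 were in the Foxp1KspKO list, 4 in the control list and 20 in neither. The corresponding shares of all protein-coding genes were 20.9%, 29.0% and 63.4%, and 13.2% were in both lists. In the authors' deposited table Jag1, a Notch ligand gene, had p = 3.15e-14 for the Foxp1KspKO ChIP, against 3.27e-04 for the control ChIP, and it was the only gene of the 25 in both. Atp6v1c2, a subunit of the proton pump, was not listed for the Foxp1KspKO ChIP and had 5.82e-06 in the control ChIP in the authors' deposited table. Hepacam2 and the receptor gene P2ry14 likewise had control values only, 0.0357 and 0.0323 in the authors' deposited table. The 20 unlisted genes included Foxi1, the pump subunit genes Atp6v1b1, Atp6v0a4 and Atp6v1g3, the ammonia transporter gene Rhcg and the water channel gene Aqp6.

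Within the anion exchanger families no gene was in both lists, beside 13.2% of all protein-coding genes. Of the 9 other Slc26 genes, Slc26a10 and Slc26a6 had p = 0.00474 and 0.0194 in the Foxp1KspKO ChIP in the authors' deposited table, and Slc26a1, a sulfate transporter gene, and Slc26a3 were listed for the control ChIP alone. Of the 8 other Slc4 genes, the authors' deposited table gave Slc4a11 p = 6.65e-04 in the Foxp1KspKO ChIP alone, and Slc4a4, the sodium bicarbonate cotransporter of the proximal tubule, 0.0150 in the control ChIP alone. With the 4 exchanger genes included, the Foxp1KspKO list held 2 of 11 Slc26 genes and 1 of 10 Slc4 genes, beside 20.9% of all protein-coding genes. The control list held 4 of 11 and 1 of 10, beside 29.0%.

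Among 15 other carbonic anhydrase genes, the Foxp1KspKO list held 1 and the control list 3, beside 20.9% and 29.0% of all protein-coding genes. Car13, a cytosolic enzyme, had p = 0.0156 for the Foxp1KspKO ChIP, against 0.00722 for the control ChIP, in the authors' deposited table. Car14 and Car4, which encode membrane-bound enzymes, were not listed for the Foxp1KspKO ChIP and had 3.15e-05 and 3.86e-04 in the control ChIP in the authors' deposited table. Car2 was thus the only gene of the family listed for the Foxp1KspKO ChIP alone, beside 7.63% of all protein-coding genes.

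The 9 paralogs of Hmx2 and Dmrt2 were in the Foxp1KspKO list in 3 cases and in the control list in 5. The shares of all protein-coding genes were 20.9% and 29.0%. Hmx3 and Dmrt3 were in both lists, and Dmrt1, Hmx1 and Dmrtc2 were listed for the control ChIP alone. Hmx1 and Dmrtc2 had p = 0.00829 and 0.0158 in the authors' deposited table. Dmrtc1a, on chromosome X, was listed for the Foxp1KspKO ChIP alone, with 0.0314 in the authors' deposited table. All 3 Hmx genes were therefore in the control list, and Hmx3 alone of them was also in the Foxp1KspKO list.

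Of 11 relatives and partners of the receptor genes, 5 were in the Foxp1KspKO list and 3 in the control list, all 3 of them in both. Of all protein-coding genes, 20.9% were in the Foxp1KspKO list, 29.0% in the control list and 13.2% in both. Kitl, which encodes stem cell factor, the ligand of Kit, had p = 4.96e-06 for the Foxp1KspKO ChIP, against 4.85e-07 for the control ChIP, in the authors' deposited table. The insulin-like growth factor receptor gene Igf1r, a relative of Insrr, had 1.20e-07 for the Foxp1KspKO ChIP, against 7.63e-57 for the control ChIP, in the authors' deposited table, and Insr was in neither list. The ligand gene Kitl was thus listed for both libraries and its receptor gene Kit for the Foxp1KspKO ChIP alone. Pdgfrb and Csf1r, which encode receptor tyrosine kinases related to Kit, were also listed for the Foxp1KspKO ChIP alone, beside 7.63% of all protein-coding genes. The authors' deposited table gave them p = 0.0366 and 0.0203, and the Benjamini-Hochberg adjusted values were 0.191 and 0.128. Both lie on chromosome 18, Pdgfrb from 61045127 to 61085067 and Csf1r from 61105572 to 61131139. The 4 other Adgrf genes were in neither list.

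**Figure D4:**
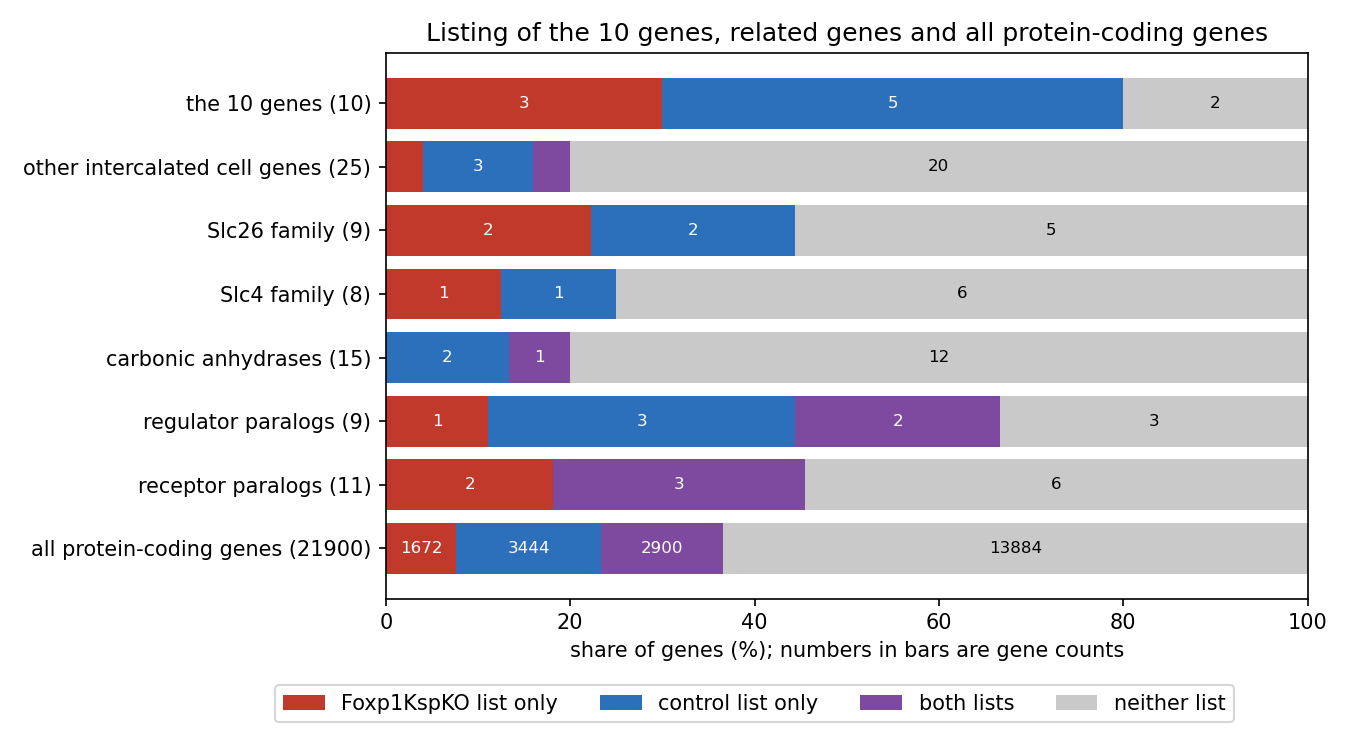
Bars give the share of genes in percent that were in the Foxp1KspKO list only, the control list only, both lists or neither, and numbers in the bars are gene counts. Related lists leave out the 10 genes. The 10 genes split into 3, 5, 0 and 2, and all 21900 protein-coding genes into 1672, 3444, 2900 and 13884.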

How the data were processed

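The data are 3 lists of genes deposited by the authors, from ChIP-seq of tubular cells of newborn mouse kidney, each of which gives a gene 1 p-value of the authors' own, under 0.05 throughout. Per the submitters' processing notes, FastQC, Trimmomatic, Bowtie2, deepTools and edgeR were used with the mouse builds GRCm38 and mm10. Which test and which background library gave the p-values, over which region of a gene and with what correction is not given in the sources used here, and the number of reads is unknown. The sheets foxp1_5 and foxp1_4 were taken for the Foxp1KspKO and the control ChIP because their names match the sample descriptions FoxP1-5 and FoxP1-4.

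The 10 genes were matched by symbol, and all other genes by NCBI gene number, where repeated numbers took their smallest p-value. Many genes share a p-value (61.0% of the Foxp1KspKO and 67.2% of the control list), so ranks are mid-ranks. Coordinates, 1-based, come from the RefSeq table (GRCm38.p6) and describe genes, not binding sites. Promoter windows of 300 bases come from RefSeq. No test was made between genotypes, since each group has 1 library. Alternatives were matching by gene number, p-value limits of 0.01 and 0.001, Benjamini-Hochberg adjustment, and other motifs. The rank, adjustment and motif steps were tested on simulated data. Python 3.11.15, pandas 2.3.3 and numpy 2.4.6 were used.

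The 10 genes and the 6 related lists were chosen with earlier results of these data known. Named genes are the 10 genes, their listed nearest neighbours, genes sharing a p-value and chromosome with them, and up to 8 listed genes of each related list. Further unlisted or neighbouring genes were named after their values were seen. Some genes that these rules name are not reported here.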

Additional observations from a re-analysis of the deposited data

How the results depend on the processing

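The counts of listed genes depended on the limit put on the deposited p-value. With a limit of 0.01 the Foxp1KspKO list held 2 of the 10 genes (12.6% of all protein-coding genes) and the control list 3 (21.1%). With a limit of 0.001 the counts were 0 (6.62%) and 2 (14.3%), and after Benjamini-Hochberg adjustment over all protein-coding genes they were 2 and 3. A stricter limit can by its construction only lower a count. Matching by NCBI gene number gave the same counts of 3, 5 and 5 for the Foxp1KspKO, control and unique lists, and all 8 percentile ranks moved by less than 1 percentage point among protein-coding genes. The motif search found 0 windows with TGTTTAC or TGTTTA and 2 with the 4 motifs added later. No paired analysis was possible because each group held 1 library, which also leaves no replicate to leave out. Depth is unknown, so for an unlisted gene a lack of signal and a lack of reads cannot be told apart.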

Other observations

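The authors' unique list did not hold every gene listed for the control ChIP alone. Nor was it limited to such genes, since 116 of its 3483 symbols also had a Foxp1KspKO row. It lacked 336 symbols that had a control row and no Foxp1KspKO row. Among these, the authors' deposited table gave P2ry14 p = 0.0323 and 2610016A17Rik p = 1.06e-07 in the control ChIP. For Dmrt2, whose start lies 172 bases from that of 2610016A17Rik, the unique list did hold a row. These genes were named after their values were seen.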
